A study of Rattus norvegicus with 6 samples.

Results

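The genes of MHC class I and class II antigen presentation were followed in cultured rat microglia, the resident macrophages of the brain. The members were all gene symbols of the deposited count table that start with RT1-, the prefix of the rat MHC, and 18 further genes of the pathway chosen by name. Of 67 members listed, 66 were among the 16876 symbols of the table, and Nlrc5, the transactivator of class I genes, was not analysed here. There were 50 class I members, of which 39 were heavy chain genes, and 12 class II members, of which 10 were chain genes. The other 4 were the shared promoter factors Rfx5, Rfxap and Rfxank and the lipid-presenting molecule gene Cd1d1.

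Poly(A) RNA was sequenced from 3 libraries of microglia kept for 24 h with PSNPs, polystyrene nanoplastics, and from 3 libraries kept for 24 h with the near-infrared dye IR-813, the comparison. The question behind the comparison is how nanoplastics act on microglia in a study of memory and neuroinflammation. All cells were Rattus norvegicus primary microglia shaken loose from mixed cultures, and the deposited columns call the IR-813 libraries con. The labels give no dose, strain or batch, and an untreated group was not analysed here, so higher and lower are relative to IR-813. They also do not say whether replicates came from separate cultures. A p-value therefore reflects only how far these libraries differ among themselves, a spread that may be technical.

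Class I molecules consist of a heavy chain and beta-2-microglobulin and show peptides from the cytosol to CD8+ T cells. These peptides are cut by proteasomes, carried into the endoplasmic reticulum by the TAP transporter and loaded there with the help of tapasin. Class II molecules consist of an alpha and a beta chain, are guided by the invariant chain Cd74 to endosomes, and show peptides from there to CD4+ T cells. In microglia both sets are kept low at rest and are known to be induced by interferon-gamma, class II through the transactivator Ciita. The classical class I genes of the rat are called RT1-A, the genes of the RT1-C/E/M region, including CE, M, N, S and T24, are nonclassical, and RT1-B and RT1-D are the classical class II molecules.

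Upstream sequences of 7 members are shown. Of these, 6 hold exact letters of promoter elements for which class I and class II genes are known. RT1-DMa, which holds no exact match, is shown for contrast. They are the 200 bases before the annotated start in RefSeq on GRCr8, 5′ to 3′ on the gene's strand. The counts were made on mRatBN7.2, and no position was moved between the builds. Capitals mark a match, on either strand, to a kappa B motif (GGGATTCCC), an interferon-stimulated response element or ISRE (GAAA, any 2 bases, and GAAA), a Y box (CTGATTGG), an X2 box (TGACGTCA) or an X1 box (CCTAGCAAC). RT1-A2 lies at chr20:4872671-4872870 on the plus strand, RT1-CE5 at chr20:3484091-3484290 on the minus strand, and RT1-S3 at chr20:2675328-2675527 on the plus strand. The B2m sequence is chr3:129549130-129549329, plus strand. The class II chain genes are RT1-Ba at chr20:4576857-4577056 and RT1-Da at chr20:4515215-4515414, both on the plus strand, and RT1-DMa at chr20:4712336-4712535 on the minus strand.
RT1-A2: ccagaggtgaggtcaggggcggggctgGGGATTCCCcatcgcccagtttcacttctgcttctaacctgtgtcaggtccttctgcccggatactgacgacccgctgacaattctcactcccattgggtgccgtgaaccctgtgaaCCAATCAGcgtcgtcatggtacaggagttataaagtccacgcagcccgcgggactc
RT1-CE5: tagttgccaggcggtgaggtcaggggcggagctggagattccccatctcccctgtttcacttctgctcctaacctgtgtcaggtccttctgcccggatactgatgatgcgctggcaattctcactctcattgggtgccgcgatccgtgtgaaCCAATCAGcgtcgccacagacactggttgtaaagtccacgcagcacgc
RT1-S3: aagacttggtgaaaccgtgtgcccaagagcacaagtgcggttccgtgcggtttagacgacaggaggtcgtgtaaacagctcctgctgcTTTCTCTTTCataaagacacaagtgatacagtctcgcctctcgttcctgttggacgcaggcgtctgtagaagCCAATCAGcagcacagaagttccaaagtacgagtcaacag
B2m: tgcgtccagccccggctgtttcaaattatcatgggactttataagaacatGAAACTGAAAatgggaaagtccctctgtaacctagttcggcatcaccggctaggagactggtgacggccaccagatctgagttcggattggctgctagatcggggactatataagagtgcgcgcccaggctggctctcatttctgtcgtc
RT1-Ba: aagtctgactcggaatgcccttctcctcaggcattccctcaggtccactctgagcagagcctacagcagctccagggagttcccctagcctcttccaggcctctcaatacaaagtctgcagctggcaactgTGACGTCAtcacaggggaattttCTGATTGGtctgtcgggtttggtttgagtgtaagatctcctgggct
RT1-Da: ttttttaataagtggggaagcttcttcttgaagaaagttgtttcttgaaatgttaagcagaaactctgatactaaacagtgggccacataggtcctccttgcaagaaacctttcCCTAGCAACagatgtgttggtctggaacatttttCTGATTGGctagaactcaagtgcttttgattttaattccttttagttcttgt
RT1-DMa: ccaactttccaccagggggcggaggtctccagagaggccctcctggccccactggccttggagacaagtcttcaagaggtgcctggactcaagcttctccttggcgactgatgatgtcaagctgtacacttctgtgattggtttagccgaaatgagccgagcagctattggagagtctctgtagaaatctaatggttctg
RT1-A2 held a kappa B match with its first base 173 bases before the start and a Y box at 56. RT1-CE5 held a Y box at 48 bases, and RT1-S3 an ISRE at 112 and a Y box at 40. B2m held an ISRE at 150 bases. RT1-Ba held an X2 box at 69 bases and a Y box at 46, and RT1-Da an X1 box at 86 and a Y box at 52. RT1-DMa encodes a chain of the peptide-exchange molecule of class II loading. Only exact letters were searched, so near matches, such as gtgattgg in RT1-DMa and gagattccc in RT1-CE5, are not in capitals. A sequence without capitals may therefore still hold such an element. No capitals of different motifs overlap in these sequences.

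The deposited read counts summed to 19166605 to 22553507 per library. Levels are given in CPM, the count scaled to a common library size, which is not per length. On a principal component analysis of log CPM, the second component, with 15.6% of the variance, set PSNPs replicate 3 at 35.4, against −22.9 and −24.3 for PSNPs replicates 1 and 2. The marker calls that follow are those of the edgeR test described below, by which 20.9% of all tested genes were higher and 20.1% lower. Of 15 microglia genes, such as Aif1, Cx3cr1 and P2ry12, 8 were lower and none was higher. Their summed level was 938 to 1287 CPM with PSNPs and 1472 to 1974 CPM with IR-813. In these bulk libraries, fewer cells of a type and less RNA per cell cannot be told apart. Of 10 astrocyte markers 5 were higher and 1 was lower, and they summed to 7799 to 8609 CPM with PSNPs and 6546 to 8361 CPM with IR-813, above the sum of the microglia markers in every library. Of 12 oligodendrocyte markers 1 was higher and 11 were lower, with sums of 4504 to 5215 CPM with PSNPs and 7259 to 8419 CPM with IR-813. Of 9 tested neuron markers 0 were higher and 7 lower, with sums of 56.0 to 120 CPM with PSNPs and 291 to 309 CPM with IR-813. Markers of border-associated macrophages, 3 of 4 tested lower, summed to 23.1 to 37.3 CPM with PSNPs and 104 to 139 CPM with IR-813, and those of fibroblasts and vessels, 2 of 5 tested lower, to 45.2 to 58.2 CPM with PSNPs and 71.9 to 103 CPM with IR-813. Dendritic and B cell markers, the other cells that present on class II, summed to 2.56 to 4.55 CPM with PSNPs and 8.28 to 9.53 CPM with IR-813, with the B cell gene Ms4a1 at 0 in every library. T and NK cell markers summed to 7.10 to 8.78 CPM with PSNPs and 27.9 to 39.9 CPM with IR-813, nearly all of it from Cd4, which rat macrophages also carry, and Cd3e and Cd3d were at 0. The part of these cell type differences in the results was not tested.

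The members that passed the test were higher with PSNPs. By edgeR's quasi-likelihood test, with p-values adjusted over all 11679 genes tested (Benjamini-Hochberg), 27 members were higher with PSNPs and 0 were lower. Over all genes, 20.9% were called higher and 20.1% lower. Class I heavy chain copies may share reads, so the members are not all separate observations. Of the 66 members, 44 passed the count filter, 17 had counts but did not pass, and 5 had no count in any library. Of the 44 tested members 17 were not called. The filter keeps a gene for the group where it is high: 7 of the 44 reached its 0.478 CPM in fewer than 3 IR-813 libraries, and RT1-Bb in 0 of them. The median log2 fold change was 0.81 over the tested members and −0.01 over all tested genes. All PSNPs libraries lay above all IR-813 libraries for 30 of the 44 members, against 30.0% of all tested genes, and with RT1-DOb, which lay below, the groups were apart for 31, against 61.4% of all tested genes. Leaving out PSNPs replicate 3 gave 23 class I and 5 class II members called higher, against 21 and 5 with it. Scaling by library size alone gave a share of higher genes among all calls of 40.5%, against 50.9% with the scaling used here, and left 21 class I and 4 class II members called higher.

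**Figure D1:**
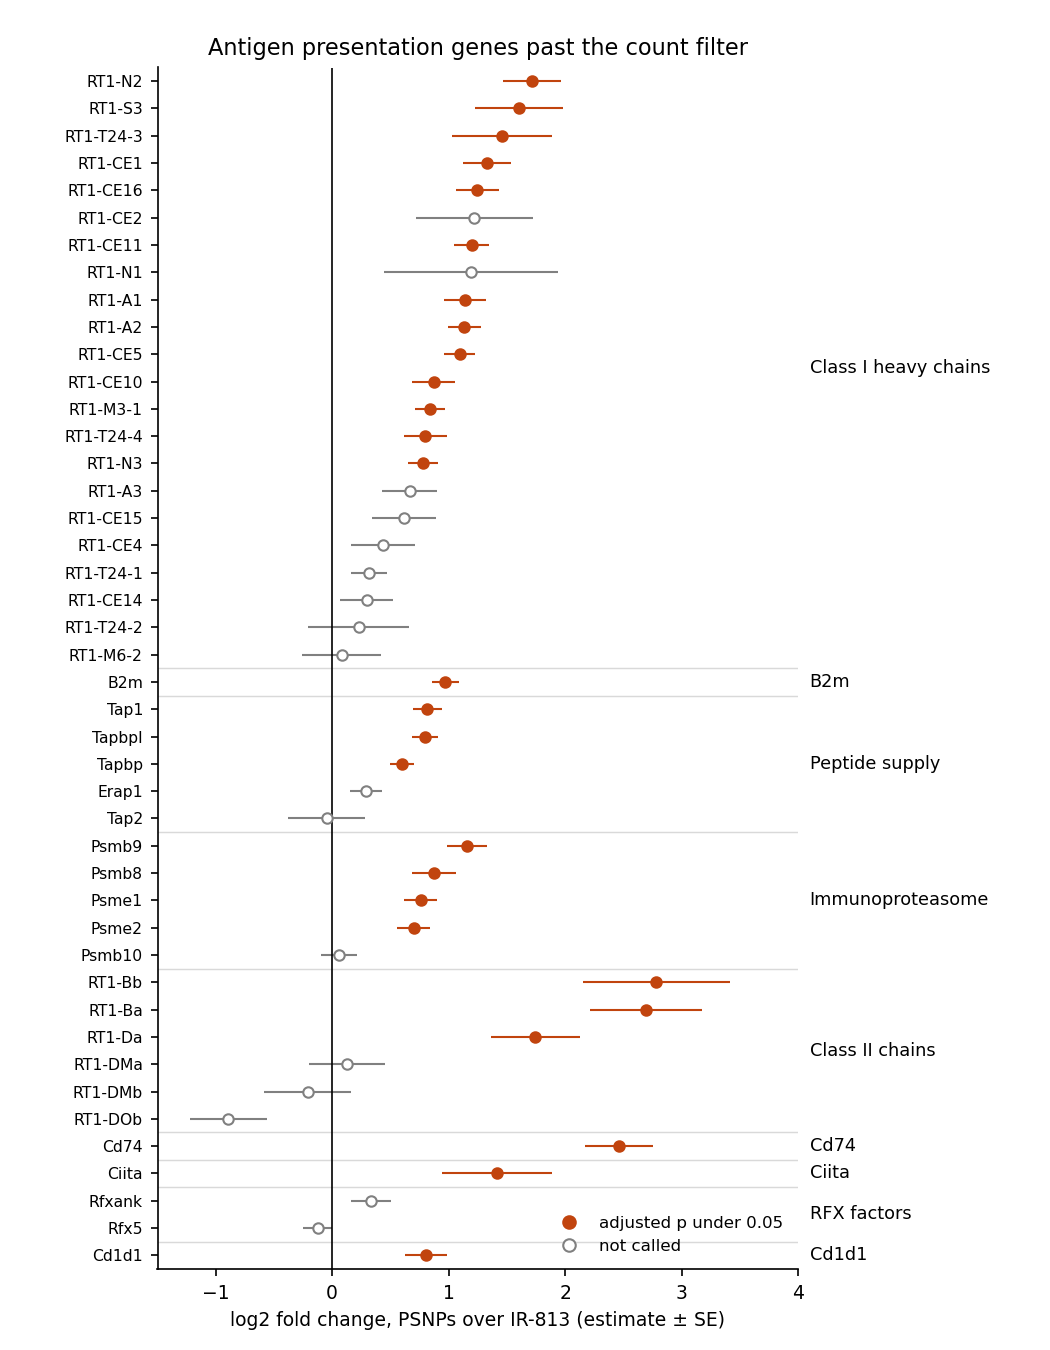
Log2 fold change of PSNPs over IR-813 for the 44 tested members, grouped by role, with lines of 1 standard error (3 libraries a group). Filled points passed an adjusted p of 0.05. All 27 filled points lie right of 0, with Cd74, RT1-Ba and RT1-Bb beyond 2, and RT1-DOb is the leftmost point at −0.89.

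Class I heavy chain genes, which encode the peptide-binding chain, were higher with PSNPs for 13 of 22 tested, against 20.9% of all tested genes. None was lower, and all 22 estimates were above 0. The copies may share reads, so their calls and signs are not separate observations. Over the 22 tested copies the median log2 fold change was 0.98. The copy with the highest CPM was RT1-CE5, with 93.9, 86.7 and 115 CPM in the PSNPs libraries, against 41.5, 46.8 and 50.4 CPM in the IR-813 libraries. Every PSNPs library lay above every IR-813 library. Its log2 fold change was 1.09 ± 0.13 (SE), with an adjusted p of 0.00115 by the same edgeR test, as for each adjusted p that follows unless another tool is named.

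The classical gene RT1-A2 had 80.1, 86.2 and 103 CPM with PSNPs, against 34.7, 44.7 and 43.3 CPM with IR-813. It was higher by 1.14 ± 0.14 on the log2 scale (adjusted p = 0.0012, edgeR). RT1-A1, the second classical gene, had 54.0, 43.4 and 71.0 CPM with PSNPs, against 27.1, 24.5 and 24.9 CPM with IR-813. PSNPs replicate 3 was the highest library for both genes, and the groups overlapped for neither. RT1-A1 was higher by 1.14 ± 0.18 (adjusted p = 0.00311, edgeR), and by 0.94 without PSNPs replicate 3. RT1-A3 had 9.84, 7.43 and 6.94 CPM with PSNPs, against 4.56, 4.01 and 6.71 CPM with IR-813, and was not called (0.67 ± 0.24, adjusted p = 0.0595, edgeR). Its groups did not overlap, although PSNPs replicate 3 and IR-813 replicate 3 were close. It was called without PSNPs replicate 3 (adjusted p = 0.0225) and without IR-813 replicate 3 (adjusted p = 0.0272), both by edgeR, and with all 6 libraries by DESeq2 (adjusted p = 0.0311) and by limma on the deposited log2 values (adjusted p = 0.046).

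**Figure D2:**
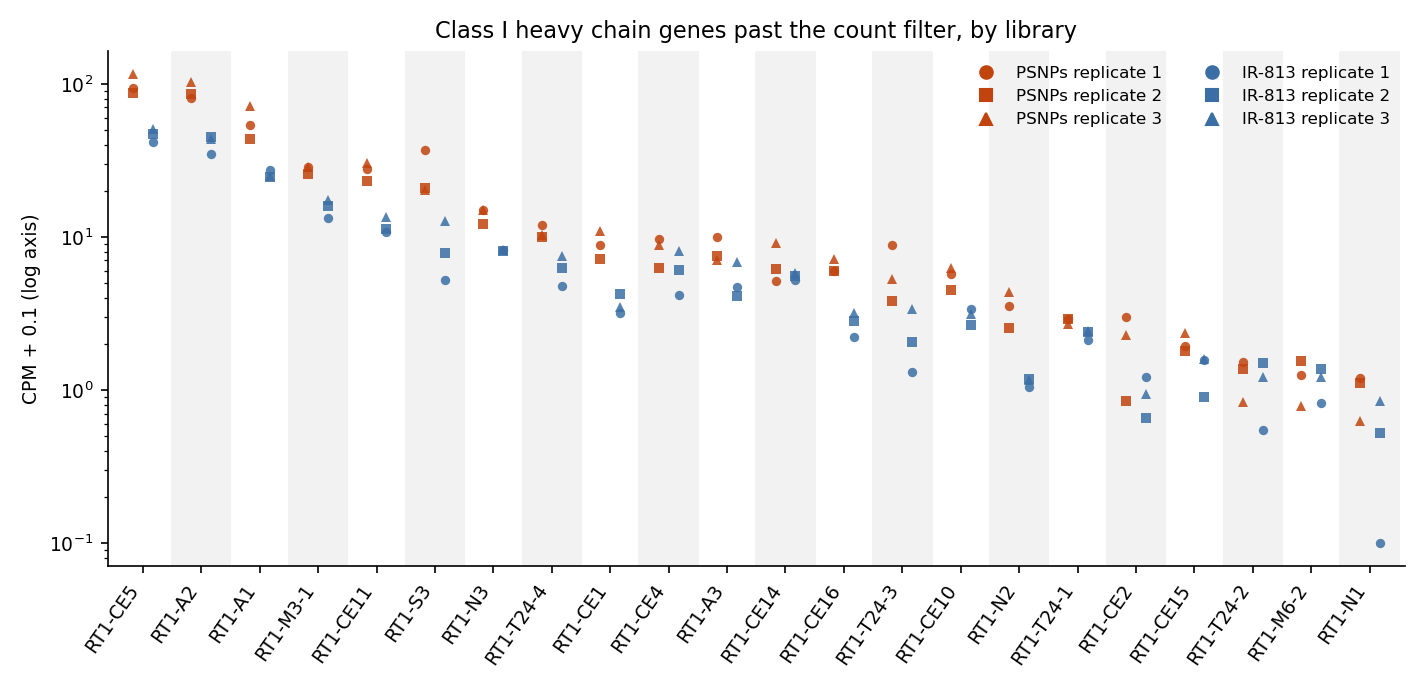
CPM plus 0.1, on a log axis, of the 22 tested class I heavy chain genes in each library, ordered by level, with PSNPs in orange left of IR-813 in blue and a symbol for each replicate. The copies with the highest CPM, RT1-CE5, RT1-A2 and RT1-A1, show all PSNPs libraries above all IR-813 libraries, while low copies such as RT1-T24-2 and RT1-M6-2 overlap.

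Of the RT1-CE genes, 5 of 9 tested were higher, against 20.9% of all tested genes. These copies may share reads, so their calls are not separate observations. RT1-CE11 had 27.7, 22.9 and 30.2 CPM with PSNPs, against 10.6, 11.1 and 13.5 CPM with IR-813, a log2 fold change of 1.20 ± 0.15 (adjusted p = 0.00126, edgeR). RT1-CE1 was higher by 1.33 ± 0.20, with 8.73, 7.11 and 10.9 CPM with PSNPs and 3.09, 4.15 and 3.38 CPM with IR-813 (adjusted p = 0.00277, edgeR). In both genes the groups were apart, and PSNPs replicate 2 was the lowest PSNPs library. RT1-CE16 (1.25 ± 0.19) and RT1-CE10 (0.87 ± 0.18) were called as well. RT1-CE2 (1.22 ± 0.50), RT1-CE15 (0.62 ± 0.27), RT1-CE4 (0.44 ± 0.28) and RT1-CE14 (0.30 ± 0.23) were not called. RT1-CE2 was uneven within the PSNPs group, with 2.90, 0.743 and 2.19 CPM, against 1.12, 0.559 and 0.833 CPM with IR-813, and without PSNPs replicate 2 it was called (1.60, adjusted p = 0.0119, edgeR). RT1-CE14 had 5.01, 6.05 and 8.97 CPM with PSNPs, against 5.10, 5.45 and 5.74 CPM with IR-813, so only PSNPs replicates 2 and 3 lay above the IR-813 libraries.

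Among the nonclassical genes outside the CE group, RT1-M3-1 had the highest mean CPM in both groups. It is the rat counterpart of mouse H2-M3, which presents peptides with a formylated first residue. It had 28.3, 25.7 and 28.3 CPM with PSNPs, against 13.2, 15.7 and 17.3 CPM with IR-813, and was higher by 0.84 ± 0.13 (adjusted p = 0.00272, edgeR). RT1-N2 had the largest log2 fold change of the heavy chains, 1.71 ± 0.25, with 3.45, 2.44 and 4.23 CPM with PSNPs and 0.940, 1.07 and 1.06 CPM with IR-813 (adjusted p = 0.00222, edgeR). RT1-N3 was higher by 0.78 ± 0.13 and its IR-813 libraries were nearly equal, at 8.05, 7.96 and 8.14 CPM, against 14.8, 11.9 and 14.8 CPM with PSNPs. The groups were apart for all 3 of these genes. RT1-N1 was not called (1.19 ± 0.75), with 24, 19 and 10 counts with PSNPs and 0, 9 and 16 counts with IR-813.

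The libraries of RT1-S3 were far apart within each group, with 37.0, 20.7 and 20.0 CPM with PSNPs, against 5.15, 7.78 and 12.6 CPM with IR-813. Replicate 1 was the highest PSNPs library and the lowest IR-813 library, and the groups did not overlap. The log2 fold change was 1.61 ± 0.38 (adjusted p = 0.0142, edgeR), and without IR-813 replicate 2 the call was lost (1.54, adjusted p = 0.058). RT1-T24-3 was likewise highest in PSNPs replicate 1 and lowest in IR-813 replicate 1, with 8.69, 3.72 and 5.22 CPM with PSNPs and 1.21, 1.96 and 3.28 CPM with IR-813, a log2 fold change of 1.46 ± 0.43 (adjusted p = 0.0326, edgeR). Its call was lost without PSNPs replicate 1, IR-813 replicate 1 or IR-813 replicate 2 (log2 fold changes of 1.06, 1.17 and 1.39, with adjusted p of 0.0919, 0.1 and 0.107 by edgeR). RT1-T24-4 was higher by 0.80 ± 0.19 (adjusted p = 0.0144, edgeR), with 11.8, 9.82 and 10.2 CPM with PSNPs against 4.70, 6.15 and 7.40 CPM with IR-813, and was not called without IR-813 replicate 2 (0.81, adjusted p = 0.0575). RT1-T24-1 (0.32 ± 0.15), RT1-T24-2 (0.23 ± 0.43) and RT1-M6-2 (0.08 ± 0.34) were not called.

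Class I copies are near-identical over long stretches, and the sources used here do not give how the authors' counting treated reads that match several copies. The strain, and with it the RT1 haplotype, is not stated either, so reads of 1 copy may have been counted on another. A copy's own value is therefore uncertain. In the RefSeq table, the span of 24 of 37 class I heavy chain genes overlaps another gene, such as RT1-CE4 with RT1-CE5, RT1-CE10 with RT1-CE11, and RT1-T24-3 with RT1-T24-4. Summing all 39 copies removes the split between them, though not reads left uncounted. The sum was 417, 360 and 462 CPM with PSNPs, against 176, 200 and 220 CPM with IR-813, or 413 ± 51.0 CPM with PSNPs and 199 ± 22.2 CPM with IR-813 (SD, n = 3 each). The libraries of the groups were apart, and the ratio of the means was 2.08. It was 2.15 over the 3 RT1-A copies, 2.05 over the 14 RT1-CE copies, and 2.01 over the 37 copies other than RT1-A2 and RT1-CE5.

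The copies with the most counts were RT1-CE5, RT1-A2 and RT1-A1 in every library. RT1-CE5 took a mean of 23.8% of these counts with PSNPs and 23.3% with IR-813, RT1-A2 took 21.8% with PSNPs and 20.6% with IR-813, and RT1-A1 took 13.4% with PSNPs and 13.0% with IR-813. RT1-S3 had the widest range among the 8 copies with the most counts, with 8.86%, 5.74% and 4.32% with PSNPs, against 2.93%, 3.88% and 5.74% with IR-813. Its groups overlapped: IR-813 replicate 3 lay above PSNPs replicate 3 and next to PSNPs replicate 2. RT1-M3-1 and RT1-N3 had smaller mean shares with PSNPs, 6.69% and 3.36%, against 7.72% and 4.09% with IR-813. Among the rarer copies, RT1-CE14 took 1.20%, 1.68% and 1.94% with PSNPs, against 2.90%, 2.72% and 2.61% with IR-813. RT1-T24-1 averaged 0.672% with PSNPs and 1.11% with IR-813, and RT1-N2 averaged 0.806% with PSNPs and 0.518% with IR-813. The groups were apart for these 3 copies, and also for others, among them RT1-M3-1, RT1-N3, RT1-CE11, RT1-CE4 and RT1-M6-2. The shares were not tested, and gene length enters each of them.

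**Figure D3:**
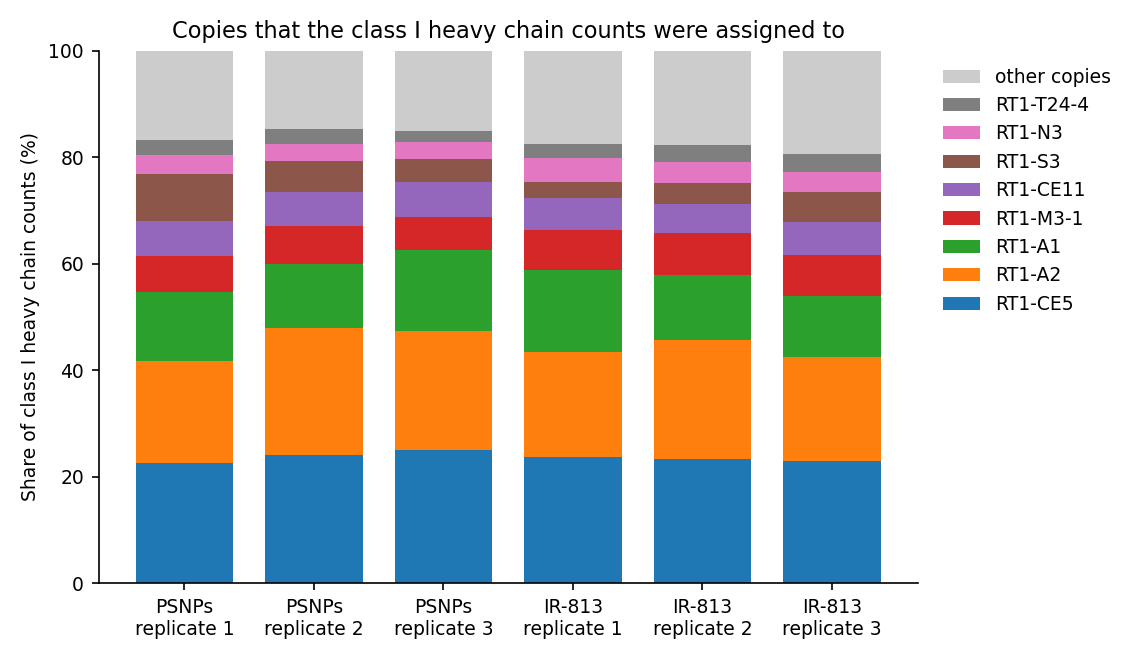
Share in percent of all class I heavy chain counts that was assigned to each of the 8 copies with the most counts and to the other copies together, 1 bar per library, PSNPs left of IR-813. RT1-CE5, RT1-A2 and RT1-A1 are the largest segments in every library, and the RT1-S3 segment ranges from 2.93% to 8.86%.

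B2m, which encodes the beta-2-microglobulin light chain that every class I molecule needs, had the highest CPM of the members. It had 1139, 988 and 1275 CPM with PSNPs, against 541, 594 and 603 CPM with IR-813. The groups were far apart, and PSNPs replicate 3 was the highest library. B2m was higher by 0.97 ± 0.12 (adjusted p = 0.00105, edgeR). On the authors' deposited log2 values, which hold a factor for each gene and whose scale is not stated, B2m averaged 9.37 with PSNPs and 8.40 with IR-813 and ranked between 138 and 257 of 16876 genes. RT1-CE5 averaged 6.08 with PSNPs and 5.01 with IR-813 on the same scale, and ranked between 1508 and 3791.

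The genes that supply and load class I peptides were higher in part. Tap1, a subunit of the transporter, had 78.1, 58.0 and 71.5 CPM with PSNPs, against 40.8, 37.6 and 39.6 CPM with IR-813, and was higher by 0.82 ± 0.12 (adjusted p = 0.00276, edgeR). Tap2, the partner subunit, was counted at only 16, 14 and 8 reads with PSNPs and 18, 10 and 15 reads with IR-813. These groups overlapped and Tap2 was not called (−0.05 ± 0.33, adjusted p = 0.916, edgeR). Tapbp, which encodes tapasin, was higher by 0.60 ± 0.10, with 58.6, 52.5 and 51.1 CPM with PSNPs and 33.6, 34.5 and 38.8 CPM with IR-813. Tapbpl, which encodes the tapasin-related peptide editor, was higher by 0.80 ± 0.11, with 72.3, 60.0 and 62.2 CPM with PSNPs and 34.5, 36.6 and 41.0 CPM with IR-813. In both the PSNPs libraries lay above the IR-813 libraries. Erap1, the aminopeptidase that trims peptides in the endoplasmic reticulum, had 130, 128 and 92.9 CPM with PSNPs, against 97.5, 93.6 and 95.8 CPM with IR-813. PSNPs replicate 3 lay below all IR-813 libraries and the gene was not called (0.29 ± 0.14, adjusted p = 0.127, edgeR). Without that library Erap1 was called higher (0.43, adjusted p = 0.000174, edgeR).

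The immunoproteasome replaces the catalytic subunits of the constitutive proteasome by Psmb8, Psmb9 and Psmb10, and Psme1 and Psme2 form its activator. Psmb9 had 38.9, 30.8 and 46.5 CPM with PSNPs, against 15.8, 16.8 and 19.5 CPM with IR-813, and was higher by 1.16 ± 0.17 (adjusted p = 0.00238, edgeR). Psmb8 had 44.8, 30.7 and 46.8 CPM with PSNPs, against 19.6, 21.3 and 25.8 CPM with IR-813, and was higher by 0.88 ± 0.19 (adjusted p = 0.0102, edgeR). In both genes PSNPs replicate 2 was the lowest PSNPs library and still above all IR-813 libraries. Psmb10 had 45.1, 39.8 and 59.1 CPM with PSNPs, against 41.8, 47.1 and 49.4 CPM with IR-813. Its groups overlapped and it was not called (0.06 ± 0.16, adjusted p = 0.787, edgeR), and its difference from Psmb8 and Psmb9 was not tested. Psme1 was higher by 0.76 ± 0.14, with 189, 182 and 255 CPM with PSNPs and 118, 118 and 134 CPM with IR-813. Psme2 was higher by 0.70 ± 0.14, with 126, 115 and 165 CPM with PSNPs and 79.9, 83.1 and 86.8 CPM with IR-813. PSNPs replicate 3 was the highest library for both activator genes.

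Each inducible subunit was also set against the constitutive subunit whose place it takes, as a ratio of their counts within a library. Psmb9 over Psmb6 was 0.277 ± 0.0216 with PSNPs and 0.129 ± 0.0206 with IR-813 (SD, n = 3 each). Psmb8 over Psmb5 was 0.258 ± 0.0481 with PSNPs and 0.171 ± 0.0261 with IR-813. For these pairs no PSNPs library overlapped an IR-813 library, whereas Psmb10 over Psmb7 overlapped, at 0.207 ± 0.0151 with PSNPs and 0.207 ± 0.0229 with IR-813. The constitutive genes themselves were not called, with log2 fold changes of 0.29 ± 0.13 for Psmb5, 0.05 ± 0.14 for Psmb6 and 0.05 ± 0.11 for Psmb7. The ratios were not tested.

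Class II genes were counted at far fewer reads than the main class I genes, and 5 of 8 tested were higher with PSNPs, with a median log2 fold change of 1.58. Over all tested genes, 20.9% were called higher. Of these 8 class II genes, 4 reached the filter's level in fewer than 3 IR-813 libraries, namely RT1-Ba, RT1-Bb, RT1-Da and Ciita. These are 4 of the 5 called higher, and they were tested because their PSNPs libraries were high. The count of 5 and the median therefore depend in part on the filter and are not set against the share of all genes. Of the 5, only Cd74 reached the level in all 3 IR-813 libraries. Cd74, the invariant chain that guides class II molecules, had 10.8, 11.8 and 15.3 CPM with PSNPs, against 1.48, 2.14 and 3.24 CPM with IR-813. The lowest PSNPs library lay far above the highest IR-813 library, and in both groups replicate 3 was the highest. Cd74 was higher by 2.46 ± 0.29 (adjusted p = 0.000962, edgeR), from 749 counts in all with PSNPs and 149 with IR-813. On the deposited log2 scale it averaged 3.68 with PSNPs and 1.62 with IR-813 and ranked between 5611 and 10334 of 16876 genes.

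The chains themselves were counted at few reads. RT1-Ba, the alpha chain of RT1-B, had 33, 33 and 42 counts with PSNPs, against 2, 4 and 12 counts with IR-813, and was higher by 2.69 ± 0.48 (adjusted p = 0.00499, edgeR). RT1-Bb, its beta chain, had 13, 18 and 15 counts with PSNPs, against 0, 2 and 5 counts with IR-813, and was higher by 2.78 ± 0.63 (adjusted p = 0.0126, edgeR). RT1-Da, the alpha chain of RT1-D, had 24, 33 and 38 counts with PSNPs, against 7, 8 and 16 counts with IR-813, and was higher by 1.74 ± 0.38 (adjusted p = 0.0112, edgeR). In all 3 the groups were apart and IR-813 replicate 3 was the highest IR-813 library. Without that library the log2 fold changes were 3.67, 3.91 and 2.21. On the deposited log2 values, with all 6 libraries, they were 1.17, 0.54 and 0.80. Those values behave as if 1 had been added before the logarithm, though no source used here gives their scaling. Without IR-813 replicate 2, RT1-Bb (2.70, adjusted p = 0.0541, edgeR) and RT1-Da (1.60, adjusted p = 0.0508, edgeR) were no longer called. RT1-Db1, the beta chain of RT1-D, was below the filter, with 7, 8 and 14 counts with PSNPs and 2, 2 and 5 counts with IR-813, and was called higher by edgeR with no filter (1.79, adjusted p = 0.0385) but not by DESeq2 (1.85, adjusted p = 0.0676).

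**Figure D4:**
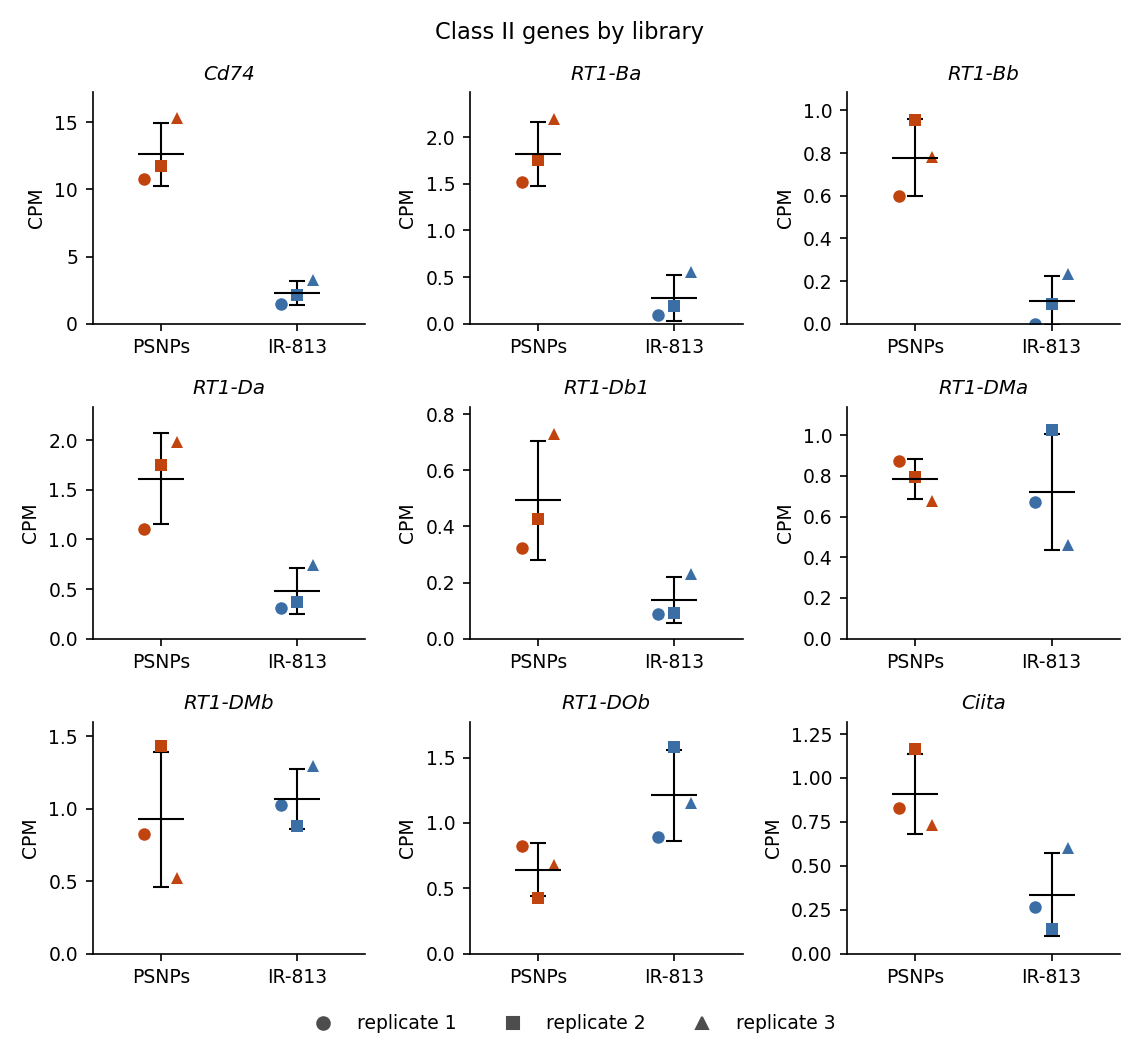
CPM of 9 class II genes in each library, PSNPs left of IR-813, with a symbol for each replicate, a bar at the mean and lines of 1 SD (n = 3 each), each panel with its own axis from 0. Cd74, RT1-Ba, RT1-Bb, RT1-Da, RT1-Db1 and Ciita lie higher with PSNPs in every library, RT1-DMa and RT1-DMb overlap, and RT1-DOb lies lower with PSNPs.

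The genes for class II peptide exchange were not called. RT1-DMa had 19, 15 and 13 counts with PSNPs, against 15, 22 and 10 counts with IR-813 (0.13 ± 0.33). RT1-DMb had 18, 27 and 10 counts with PSNPs, against 23, 19 and 28 counts with IR-813 (−0.21 ± 0.37). The groups overlapped for both chains of the exchange molecule, and whether these genes differ from the classical chains in response was not tested. RT1-DOb, a chain of its modulator, had 18, 8 and 13 counts with PSNPs, against 20, 34 and 25 counts with IR-813, so every PSNPs library lay below every IR-813 library. It was not called by edgeR (−0.89 ± 0.33, adjusted p = 0.0684), but by limma on the deposited log2 values it was called lower (−0.51, adjusted p = 0.0488). RT1-DOa and RT1-Db2 had 1 count each, in PSNPs replicate 2, and RT1-Ha had none.

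Ciita, the transactivator of class II promoters, had 18, 22 and 14 counts with PSNPs, against 6, 3 and 13 counts with IR-813. The highest IR-813 library came close to the lowest PSNPs library, without overlap. It was higher by 1.41 ± 0.47 and just passed (adjusted p = 0.0487, edgeR). It was not called without PSNPs replicate 1 or 2 (log2 fold changes of 1.48 and 1.20, adjusted p of 0.0868 and 0.12) or without IR-813 replicate 1 or 2 (1.27 and 1.05, adjusted p of 0.15 and 0.133), all by edgeR. Its adjusted p ranged from 0.0187 to 0.15 over 11 alternatives, and it was called in 2 of them. Rfx5, a subunit of the factor that binds the X1 box of class I and class II promoters, had 38.2, 37.3 and 29.0 CPM with PSNPs, against 37.7, 36.8 and 39.5 CPM with IR-813, and was not called (−0.12 ± 0.13). Rfxank, its partner, averaged 11.1 ± 2.32 CPM with PSNPs and 8.79 ± 0.647 CPM with IR-813 and was not called either (0.33 ± 0.17). Rfxap had 1 count in all, in IR-813 replicate 3.

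Cd1d1, which presents lipids to natural killer T cells and also pairs with beta-2-microglobulin, had 9.51, 8.07 and 7.88 CPM with PSNPs, against 3.80, 5.31 and 5.46 CPM with IR-813. The groups were apart, and it was higher by 0.81 ± 0.18 (adjusted p = 0.0115, edgeR).

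The 250 bases before the start were searched for the same exact letters in 27457 RefSeq promoters, 56 of them of members. Variants of an element with other letters were not counted, so the shares are of these letters alone. The kappa B letters were in 0.262% of all promoters and in 8 of 32 class I heavy chain promoters, among them RT1-A1, RT1-A2, RT1-A3, RT1-CE11 and RT1-CE16, and in 0 of 9 class II chain promoters. The Y box letters were in 3.26% of all promoters, in 10 of the 32 heavy chain promoters and in 7 of the 9 class II chain promoters. The ISRE letters were in 3.29% of all promoters, in 3 of the 32 heavy chain promoters, and in 6 of 10 promoters of the light chain, transport, loading and proteasome genes. The X2 letters (1.70% of all) were in RT1-Ba alone among the members, and the X1 letters (0.652% of all) in RT1-Da and RT1-DOb. The copies share much of their sequence, so their matches are not separate observations.

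Genes with and without a match were called, and over all tested genes 20.9% were called higher. Of 7 tested heavy chain genes with a kappa B match 5 were higher, and of 13 without one 8 were higher. Among the light chain, transport, loading and proteasome genes, 4 of 6 with an ISRE match were higher, namely B2m, Tap1, Tapbp and Psme2, while Tap2 and Psmb10 were not called. The 4 of this group with a promoter in the table and no ISRE match, Tapbpl, Psmb8, Psmb9 and Psme1, were all higher. Of the 7 class II chain genes with a Y box, RT1-Ba, RT1-Bb and RT1-Da passed the count filter, each with at most 1 IR-813 library at the filter's level, so their calls are not set against those of other chains. A match says nothing of whether a factor was bound, and a gene without an exact match may hold a variant of the element.

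**Figure D5:**
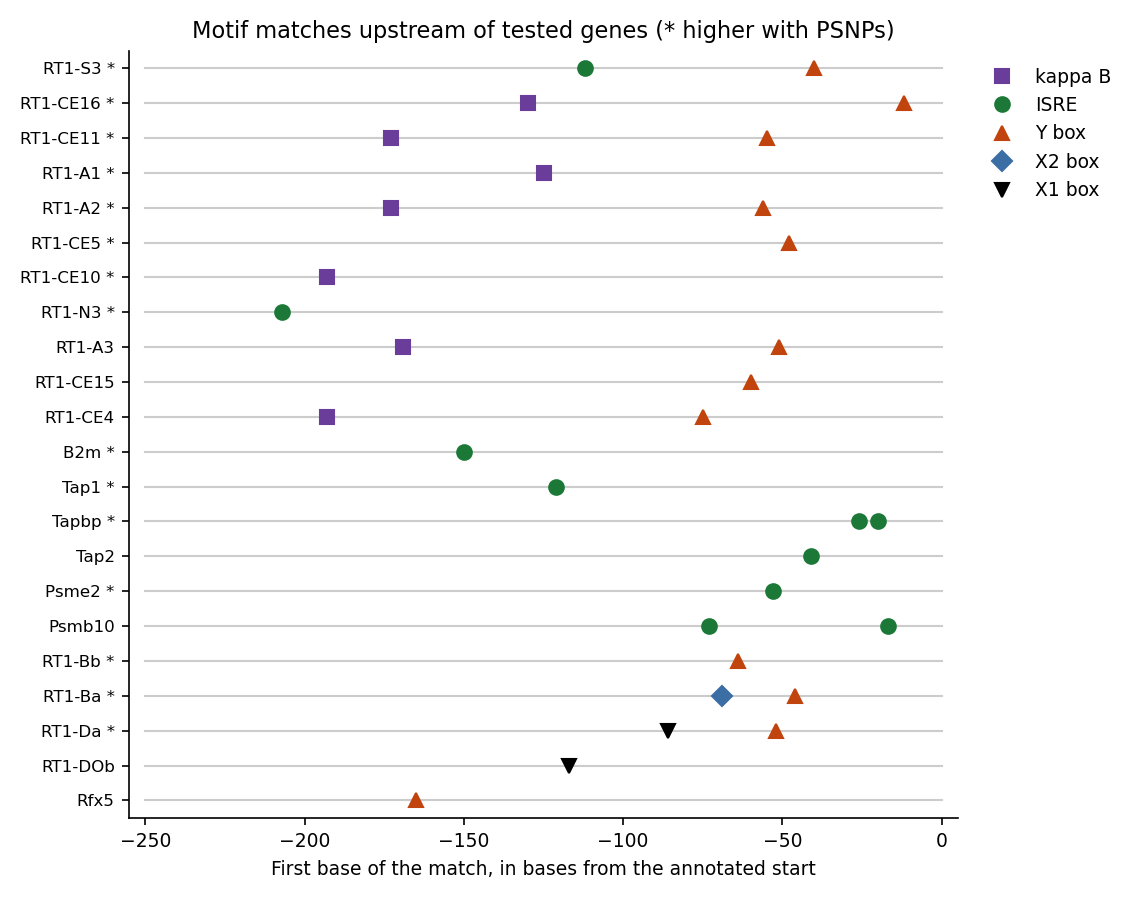
Distance in bases from the annotated start of the first base of each motif match for tested members with at least 1 match, with a symbol for each motif and a star for genes called higher with PSNPs. Y boxes of class I and class II chain genes lie within about the last 75 bases, and kappa B matches lie only on class I heavy chain genes.

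Other genes of the pathway were counted in the same fit, against 20.9% of all genes called higher and 20.1% called lower. Of 8 tested genes of class I loading outside the members, 4 were higher and 0 lower, with a median log2 fold change of 0.31. Calr, the loading-complex chaperone calreticulin, averaged 1526 ± 121 CPM with PSNPs and 832 ± 57.0 CPM with IR-813 (SD, n = 3 each), a log2 fold change of 0.87 ± 0.10. Pdia3, the oxidoreductase of the same complex, averaged 799 ± 0.679 CPM with PSNPs and 503 ± 26.6 CPM with IR-813 (0.67 ± 0.08). Of 7 constitutive proteasome and regulator genes, 0 were higher and 1, the nuclear activator gene Psme3, was lower (−0.25 ± 0.07), with a median of 0.05. Of 10 genes of class II peptide processing and surface control, 1 was higher and 3 were lower, with a median of −0.16. Cd83, which stabilises class II molecules at the surface, was higher by 0.98 ± 0.14, whereas the cathepsin genes Ctsl (−0.47 ± 0.11) and Ctss (−0.69 ± 0.18), whose enzymes cut the invariant chain, were lower. Cathepsin S is also abundant in microglia. Of 15 microglia marker genes 8 were lower, 0 were higher and 7 were not called, and the part of that in Ctss was not tested.

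Of 5 tested costimulation and adhesion genes, Cd80, a ligand of the T cell receptor CD28, was the single one called, with 2.67, 2.65 and 1.25 CPM with PSNPs, against 0.492, 0.745 and 0.601 CPM with IR-813. PSNPs replicate 3 was well below the other PSNPs libraries and above all IR-813 libraries, and the log2 fold change was 1.83 ± 0.36 (adjusted p = 0.0071, edgeR). The median over the 5 was −0.24. Of 18 genes of interferon receptors, signalling and regulators of MHC promoters, 7 were higher and 2 lower, with a median of 0.30. The feedback inhibitor gene Socs1 (0.82 ± 0.13) and the transcription factor gene Irf1 (0.69 ± 0.13), both known targets of interferon-gamma, were higher, and Irf8 (−0.84 ± 0.20), a factor of microglia, and Irf3 (−0.50 ± 0.12) were lower. Of 6 genes of the complex that assembles on class II promoters, 0 were higher and 2 were lower, the Y box subunit gene Nfya (−0.74 ± 0.16) and the coactivator gene Crebbp (−0.57 ± 0.12), with a median of −0.46. Of 4 tested class I-like and receptor genes, Hfe, which encodes a class I-like regulator of iron uptake, was called, with 2.07, 2.02 and 2.09 CPM with PSNPs and 0.761, 0.885 and 0.879 CPM with IR-813 (1.28 ± 0.18). The groups were apart, and the median over the 4 was 0.56.

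The remaining members were class I heavy chain genes with counts too low to test. RT1-CE12 had 15, 6 and 18 counts with PSNPs, against 4, 5 and 9 counts with IR-813, and RT1-CE3 had 10, 7 and 13 counts with PSNPs, against 4, 2 and 1 counts with IR-813. RT1-M6-1 had 3, 1 and 4 counts with PSNPs and 1, 2 and 1 counts with IR-813. RT1-S2 had 0, 0 and 3 counts with PSNPs, against 2, 5 and 1 counts with IR-813. RT1-CE3 was apart between the groups, and the others overlapped. RT1-T18 had 4 counts in all with PSNPs and 0 with IR-813, and RT1-M2 had 0 with PSNPs and 4 with IR-813. RT1-CE6, RT1-Cl, RT1-M1-2, RT1-M10-1, RT1-M4, RT1-M5 and RT1-O1 had between 0 and 4 counts in either group. RT1-CE7, RT1-CE13, RT1-M1-4 and RT1-M1-5 had no count in any library. When no count filter was applied, RT1-CE3 was called higher by edgeR (2.18, adjusted p = 0.0157) and by DESeq2 (2.25, adjusted p = 0.0283), and the other heavy chain genes under the filter were not called.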

How the data were processed

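RNA was measured in 6 libraries, 3 PSNPs and 3 IR-813, grouped by sample title. The authors deposited whole-number read counts per gene symbol, the source of the main tests, and log2 values per library whose scaling no source used here gives. With 1 taken off, the unlogged deposited log2 values were proportional to CPM per gene within 0.05 log2 units for 99.3% of 9774 genes with at least 50 counts in every library, in the library with the lowest share. The submitters' processing notes name bcl2fastq and mRatBN7.2. Aligner, counter, annotation and strand setting were not stated in the sources used here, so overlapping or antisense genes could share reads.

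Counts were filtered (filterByExpr, 11679 genes), scaled by TMM and tested in R 4.3.3 by edgeR 4.0.16 (glmQLFit and glmQLFTest, treatment as the only term), with Benjamini-Hochberg adjustment over all tested genes and a threshold of 0.05. Standard errors are the log2 fold change over the square root of F. The common biological coefficient of variation was 0.159. Levels are CPM on TMM-scaled library sizes. Reads are not independent molecules. The members and lists were chosen with earlier results of these data known. Every member is named or counted, and of each pathway list the 2 genes with the smallest p called higher and the 2 called lower are named. The marker lists gave levels. Nlrc5 and listed genes outside the table were not analysed here. Alternatives were DESeq2 1.42.0, limma 3.58.1 on the deposited log2 values, other filters and scaling, a replicate block and leaving out each library. The scripts were tested on simulated data. Replicate numbers in the titles are not said to mark a shared culture. Promoter and span data are RefSeq on GRCr8, matched by symbol for 64 and, for promoters, 56 members.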

Additional observations from a re-analysis of the deposited data

How the results depend on the processing

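Of 27 members called higher, 21 were called in every alternative run, up to 12 each, and RT1-Bb, RT1-Da, RT1-S3, RT1-T24-3, RT1-T24-4 and Ciita were lost in at least 1. No call changed sign. All genes called numbered 4790, and on leaving out 1 library from 2812 (IR-813 replicate 2) to 7069 (PSNPs replicate 3), with 2987 for IR-813 replicate 1. On leaving out 1 library class I members called higher numbered 18 to 23, against 21, and class II members 2 (without IR-813 replicate 2) to 5, against 5. A filter of at least 1 CPM in every library of a group left 3 class II genes, called higher. RT1-Ba and RT1-Da passed it through the PSNPs libraries alone, so their calls under it show nothing of stability. Cd74, the other gene, passed it in both groups, with 1.48, 2.14 and 3.24 CPM with IR-813. DESeq2 called 23 class I and 4 class II members higher, limma on the deposited log2 values 22 and 4, with RT1-DOb lower, and no filter 22 and 5, with RT1-CE3 and RT1-Db1 gained and Ciita lost. With the replicate block, 4159 genes were called, 21 class I and 4 class II members among them higher: RT1-T24-3 (adjusted p = 0.0602, edgeR) and Ciita (adjusted p = 0.0923, edgeR) were lost and RT1-CE2 was gained (adjusted p = 0.0317, edgeR). Same-numbered libraries deviated from their group means with correlations across genes of −0.01, 0.01 and 0.12, so the numbers were not taken as pairs. Uncalled members changed sign in 10 cases, whose causes were not tested. On leaving out 1 library, log2 fold changes ranged from −0.11 to 0.46 for RT1-DMa, −0.64 to 0.061 for RT1-DMb, −0.15 to 0.33 for RT1-M6-2, −0.13 to 0.56 for RT1-T24-2, −0.24 to 0.17 for Tap2 and −0.11 to 0.18 for Psmb10, which was at −0.017 with library size scaling. Depth limits the genes counted at few reads per library, among them the class II chains, Tap2, Ciita, RT1-N1 and the heavy chain genes under the count filter.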
